A study of Homo sapiens with 18 samples.

Results

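The expression of 9 genes that set or mark the epithelial or mesenchymal state of a carcinoma cell was followed in human prostate cancer cell lines after knockdown of EMD. They are SNAI1, SNAI2, ZEB1, ZEB2 and TWIST1, which encode inducers of the mesenchymal state, GRHL2 and OVOL1, which encode factors that keep the epithelial state, and VIM and CDH2, which encode the mesenchymal proteins vimentin and N-cadherin. The members were chosen by symbol in the DU145 table and then by Ensembl gene identifier in the other tables, which made 9 of the 41440 genes listed in any of the 3 tables. All 9 were listed for DU145, 8 for 22Rv1 (SNAI2 was not listed) and 6 for C4-2B (CDH2, ZEB2 and TWIST1 were not listed); a member missing from a table is not analysed here in that line. EMD encodes emerin, a lamin-binding protein of the nuclear envelope, and the study's title names its dysregulation in very small nuclei and lineage plasticity as the question. RNA was sequenced from 18 libraries in 6 groups of 3: control and EMD knockdown cells of C4-2B (a castration-resistant, bone-metastatic derivative of LNCaP), 22Rv1 (from a relapsed xenograft) and DU145 (from a brain metastasis, negative for the androgen receptor).

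The cells of all 18 libraries received a scrambled siRNA (the control groups) or an siRNA against EMD with a cationic lipid, per the labels' protocols, and the lipid was removed after 24 h. In DU145, however, knockdown libraries are named with shEMD, the usual mark of a hairpin vector, so the reagent in that line is not settled. C4-2B and 22Rv1 were grown in RPMI-1640 and DU145 in DMEM. Lines were also tabulated separately and carry different batch labels. Line, batch, table and, for DU145, medium therefore cannot be told apart, whereas the 2 arms of a line have all of these in common. Nothing in the labels says whether the 3 libraries of a group are separate cultures, so p-values measure only the spread between these libraries. In bulk RNA, fewer cells of a kind and less RNA per cell cannot be told apart.

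In the epithelial-to-mesenchymal transition, carcinoma cells lose E-cadherin and tight junctions and gain vimentin, N-cadherin and motility. The zinc-finger factors encoded by SNAI1, SNAI2, ZEB1 and ZEB2 repress CDH1 (E-cadherin) and other epithelial genes through CACCTG boxes, and TWIST1 encodes a basic helix-loop-helix inducer. GRHL2 and OVOL1 encode transcription factors that oppose ZEB1, and the miR-200 microRNAs target the ZEB1 and ZEB2 transcripts, while ZEB1 represses the miR-200 genes in return. In prostate cancer, C4-2B and 22Rv1 are used as androgen receptor-positive luminal-like lines and DU145 as a receptor-negative line with mesenchymal traits.

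Library totals lay between 14722733 and 25112148 reads for C4-2B, 15602874 and 30788078 for 22Rv1, and 21024352 and 43311727 for DU145. Replicates differed by more than sampling noise in every pair (chi-square of 2.31 to 8.40 for each degree of freedom). EMD itself was lower in every knockdown library than in every control library of its line. In C4-2B it went from 67.2 to 75.1 reads per 1e+06 scaled reads (CPM) in controls to 6.38 to 10.0 CPM in knockdowns, an 8.39-fold fall. The fall was smaller in 22Rv1, 3.33-fold (60.9 to 69.7 against 17.5 to 21.2 CPM). In DU145 it was 9.27-fold (40.7 to 47.7 against 4.61 to 5.01 CPM). Of the 7 luminal and androgen receptor markers, all were listed in each line, and their summed level was 4656 to 4708 CPM in C4-2B controls (3798 to 3832 in knockdowns), 1363 to 1458 CPM in 22Rv1 controls (1075 to 1110) and 41.2 to 43.3 CPM in DU145 controls (36.9 to 37.2). The 5 epithelial markers, CDH1 among them, summed to 1687 to 1746 CPM in C4-2B controls and 1984 to 2033 CPM in knockdowns, 1856 to 1949 and 1415 to 1446 CPM in 22Rv1, and 2049 to 2211 and 1009 to 1105 CPM in DU145. Markers of fibroblasts (3, 8 and 8 of 8 listed in C4-2B, 22Rv1 and DU145) summed to at most 9.56 CPM in any library. Endothelial markers summed to at most 22.8 CPM. Blood markers summed to at most 13.2 CPM in C4-2B and 22Rv1 but to 95.6 to 96.3 CPM in DU145 controls and 29.3 to 32.2 CPM in DU145 knockdowns, with 1 gene, CD68 (a lysosomal protein that carcinoma cells can also express), at 94.1 ± 0.552 CPM in the controls (mean ± SD, n = 3). The part of these marker shifts in the results below was not tested.

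Across control libraries, DU145 stood apart from the other lines at nearly every member. VIM and ZEB1 were high in DU145 and low in the other lines, ZEB2 was high in DU145 and nearly unread in 22Rv1, GRHL2 and OVOL1 were high in C4-2B and 22Rv1 and near 0 in DU145, and SNAI2, TWIST1 and CDH2 ran the other way from VIM, being lower in DU145 than in the line they were compared with. The levels below are CPM on a scale set over all 18 libraries for the 5 members listed in all 3 tables. They come from an edgeR quasi-likelihood fit with 1 coefficient per group, and adjusted p-values follow Benjamini and Hochberg, taken across the 17152 genes tested. All 5 members passed the adjusted p threshold of 0.05 in each of the 3 pairs of lines, where 78.4% (C4-2B against 22Rv1), 83.1% (C4-2B against DU145) and 83.8% (22Rv1 against DU145) of all genes tested also passed. A call between lines was therefore common among all genes, and the sizes carry the description.

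Among the inducers, ZEB1 (ENSG00000148516, chromosome 10, 31318495 to 31529814, plus strand, GRCh38) had 0 reads in the 3 C4-2B controls, 0.152 ± 0.108 CPM in those of 22Rv1 and 53.0 ± 2.87 CPM in those of DU145 (mean ± SD, n = 3 here and for the other levels). Set against a floor of 3 reads over the 3 libraries, DU145 was at least 1067-fold higher than C4-2B. Against the 11 reads of 22Rv1 it was 375-fold higher (95% exact interval 209 to 751, counting error only). Between 22Rv1 and C4-2B, 11 reads stood against 0, with 1.95 as the lower limit of the 95% exact interval of their ratio, a difference that passed the test (edgeR adjusted p = 0.00337) but not without replicate 1 of each group (0.0611). SNAI1 (ENSG00000124216, chromosome 20, 49982999 to 49988886, plus strand) differed least, at 2.52 ± 0.592 CPM in C4-2B, 3.94 ± 0.514 CPM in DU145 and 6.05 ± 0.453 CPM in 22Rv1. Its lowest C4-2B control was at 2.09 CPM and its highest 22Rv1 control at 6.55 CPM. The step from C4-2B to DU145 was 1.55-fold (edgeR adjusted p = 0.00819, and 0.136 without replicate 2 of each group) and that from DU145 to 22Rv1 1.53-fold (0.00519, and 0.0791 without replicate 1 of each group), so neighbours in this order are not firmly set apart.

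The remaining inducers are each listed in fewer tables, so they were compared in added fits of the 12 libraries of a pair of lines, chosen after the data had been seen. SNAI2 (ENSG00000019549, chromosome 8, 48917604 to 48921740, minus strand) was at 11.3 ± 0.54 CPM in C4-2B controls and 0.982 ± 0.194 CPM in DU145 controls, an 11.8-fold difference (edgeR adjusted p = 3.73e-15, where 84.2% of 17216 genes tested passed). TWIST1 (ENSG00000122691, chromosome 7, 19020991 to 19117672, minus strand) was at 16.4 ± 2.42 CPM in 22Rv1 and 0.583 ± 0.428 CPM in DU145, a 32.2-fold difference (edgeR adjusted p = 2.54e-13, where 85.9% of 18448 genes tested passed). ZEB2 (ENSG00000169554, chromosome 2, 144364364 to 144524583, minus strand) went the other way, with 1 read over the 3 controls of 22Rv1 and 368 over those of DU145, a ratio of 315 (95% exact interval 56.2 to 12484, counting error only). Both ZEB genes were thus read mainly in DU145 among the lines compared, while the 22Rv1 controls held TWIST1 and SNAI1 and the C4-2B controls SNAI2 and SNAI1.

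The factors of the epithelial state were high in C4-2B and 22Rv1 and near 0 in DU145, where ZEB1 was high. GRHL2 (ENSG00000083307, chromosome 8, 101492432 to 101669726, plus strand), which encodes a grainyhead-family activator of CDH1 and claudin genes, was at 161 ± 4.84 CPM in C4-2B, 125 ± 6.19 CPM in 22Rv1 and 0.353 ± 0.103 CPM in DU145. C4-2B stood 1.28-fold above 22Rv1 (edgeR adjusted p = 2.81e-06) with no overlap of libraries (156 to 165 against 119 to 131 CPM), and 22Rv1 stood 366-fold above DU145. OVOL1 (ENSG00000172818, chromosome 11, 65787022 to 65797219, plus strand), which encodes a zinc-finger repressor of mesenchymal genes, was at 30.8 ± 1.34 CPM in 22Rv1, 9.87 ± 0.833 CPM in C4-2B and, with 1 read in all, 0.017 ± 0.0294 CPM in DU145. The step from 22Rv1 down to C4-2B was 3.13-fold (edgeR adjusted p = 3.32e-14). C4-2B held 877 times the DU145 level (95% exact interval 157 to 34679, counting error only).

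Of the mesenchymal proteins, VIM (ENSG00000026025, chromosome 10, 17228259 to 17237593, plus strand), which encodes the type III intermediate filament protein vimentin, was at 2160 ± 63.7 CPM in DU145, 6.58 ± 1.15 CPM in C4-2B and 1.55 ± 0.638 CPM in 22Rv1. DU145 stood 324-fold above C4-2B and C4-2B 4.66-fold above 22Rv1 (edgeR adjusted p = 3.26e-26 and 1.35e-10). The lowest C4-2B control (5.41 CPM) was above the highest 22Rv1 control (2.28 CPM). CDH2 (ENSG00000170558, chromosome 18, 27950966 to 28177446, minus strand), the cell adhesion molecule often gained when E-cadherin is lost, was at 12.7 ± 0.285 CPM in 22Rv1 and 0.568 ± 0.449 CPM in DU145 on the 12-library scale, 25.9-fold higher in 22Rv1 (edgeR adjusted p = 4.61e-12). DU145 thus had more VIM RNA and less CDH2 RNA than 22Rv1, and its level of CDH1 was 22.6 ± 0.506 CPM against 673 ± 14.5 CPM in C4-2B and 407 ± 17.5 CPM in 22Rv1, each on its own line's scale.

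**Figure D1:**
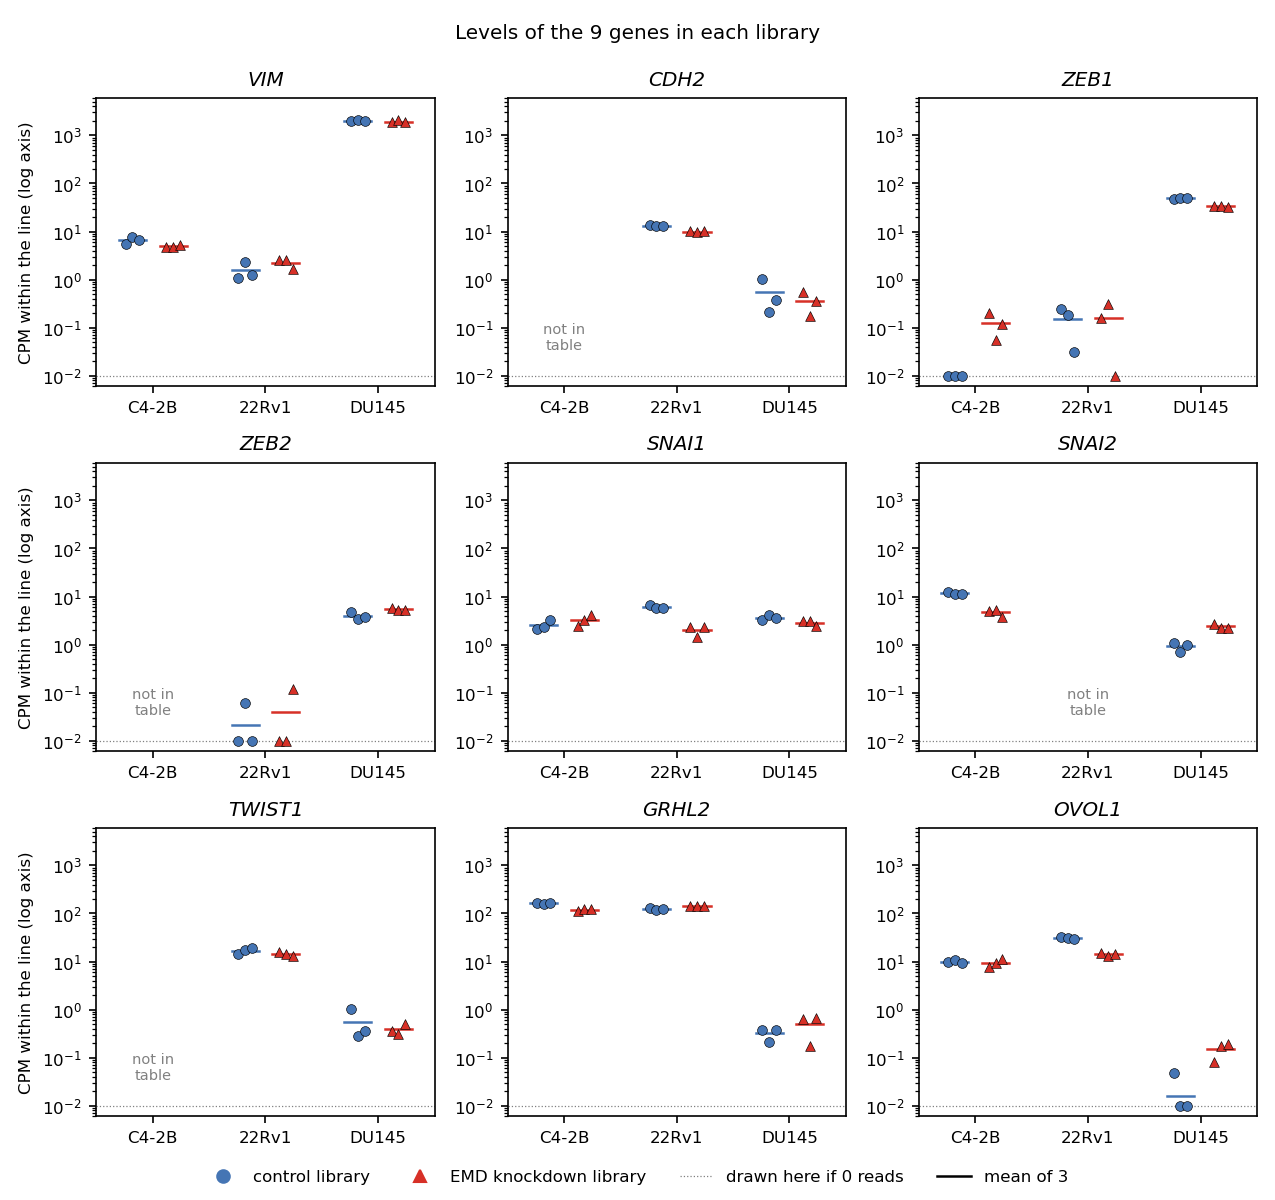
Level of each of the 9 genes in every library, in CPM scaled within its line on a log axis, with controls as blue circles, EMD knockdowns as red triangles and the mean of 3 libraries as a line; libraries with 0 reads are drawn on the dotted line. VIM and ZEB1 are high in DU145, GRHL2 and OVOL1 in C4-2B and 22Rv1, with gaps between DU145 and the other lines far wider than those between control and knockdown at these 4 genes.

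**Figure D2:**
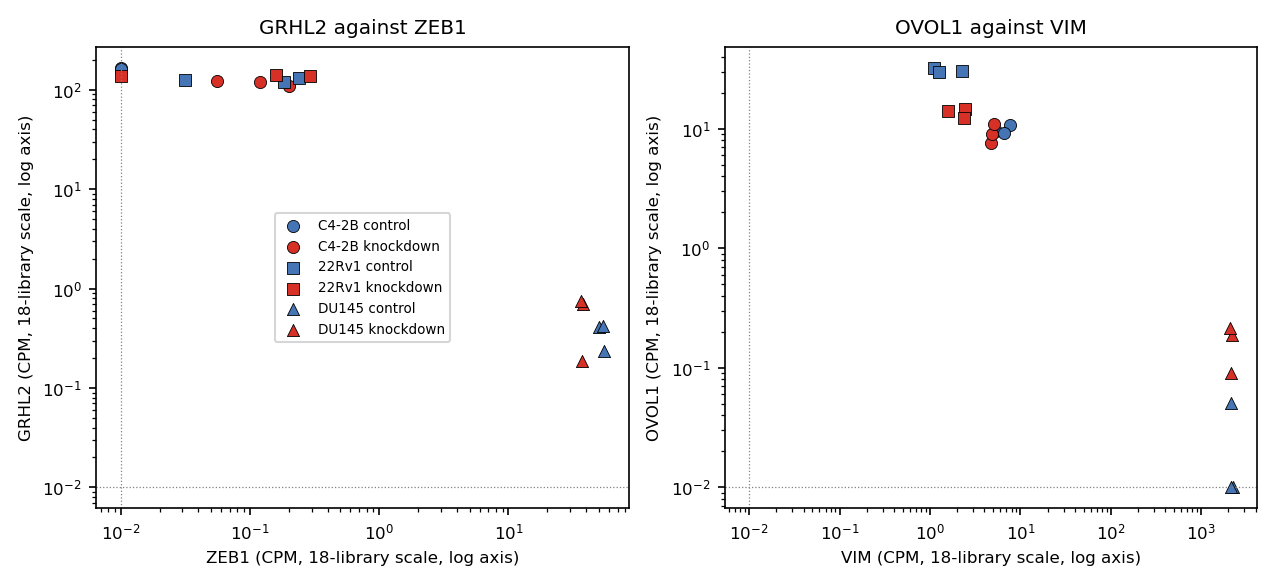
GRHL2 against ZEB1 and OVOL1 against VIM in the 18 libraries, in CPM on the 18-library scale with log axes, symbols by line and colours by arm; the dotted lines mark libraries with 0 reads. The DU145 libraries lie in the lower right corner of both panels and the knockdown libraries stay in the corner of their line.

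Within a line, levels are CPM scaled by TMM over the genes tested there, a change is the log2 ratio of knockdown to control ± SE, and adjusted p-values are from edgeR's quasi-likelihood test over all genes tested in the line. In C4-2B, SNAI2 and GRHL2 fell after EMD knockdown and no member rose. Of 5 members tested, 2 fell and 3 did not pass. Of the 15801 genes tested in C4-2B, 41.7% passed (19.4% higher and 22.3% lower), so 2 of 5 is near the background.

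SNAI2, the inducer known as Slug, was at 12.3, 11.2 and 11.5 CPM in C4-2B controls 1 to 3 and at 5.12, 5.14 and 3.83 CPM in knockdowns 1 to 3. All 3 knockdown libraries lay well below all 3 controls, a change of -1.31 ± 0.16 (edgeR adjusted p = 2.54e-07), or 2.48-fold. SNAI1, which encodes Snail, was at 2.12, 2.31 and 3.23 CPM in controls and 2.43, 3.19 and 4.07 CPM in knockdowns. Those ranges overlap, and the difference of 0.33 ± 0.28 did not pass (edgeR adjusted p = 0.371). ZEB1 had no read in any C4-2B control and 3, 1 and 2 reads in the knockdowns, below the filter on low counts. The 95% exact interval of the ratio starts at 1.41 (counting error only). With no filter the edgeR adjusted p was 0.142, and in the fit of all 18 libraries it passed (0.0206). The gene with the fewest reads listed for C4-2B had 5 in all, so ZEB1 was listed there through its knockdown reads alone. It passed the filter of the 18-library fit through its DU145 reads. The interval and these tests are thus conditioned on the arm where it is high.

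GRHL2 was at 168, 158 and 163 CPM in C4-2B controls and 110.5, 125 and 121 CPM in knockdowns. Every knockdown library was below every control, and the fall was 1.37-fold (-0.45 ± 0.05, edgeR adjusted p = 2.22e-08). OVOL1 stood at 9.72, 11.0 and 9.34 CPM in controls and 7.75, 9.22 and 11.1 CPM in knockdowns, which overlap fully (-0.09 ± 0.15, edgeR adjusted p = 0.661). VIM was at 5.49, 7.81 and 6.71 CPM in controls and 4.79, 4.86 and 5.16 CPM in knockdowns. Its groups do not overlap, but the difference of -0.44 ± 0.18 just missed the threshold (edgeR adjusted p = 0.0588). It passed without control 1 (0.0268) and in the fit of all 18 libraries (0.0182). CDH1, the shared target of these factors, rose by 0.25 ± 0.04 (673 ± 14.5 to 801 ± 13.0 CPM, edgeR adjusted p = 2.23e-06), so the C4-2B knockdowns had less GRHL2 and more CDH1 RNA.

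In 22Rv1, OVOL1, SNAI1 and CDH2 fell after EMD knockdown and GRHL2 rose. Of 6 members tested, 1 rose, 3 fell and 2 did not pass, against 67.8% of all 16656 genes tested (33.5% higher and 34.3% lower). The share of members called, 4 of 6, is near the background. Genes of low level also fell together in this line: the median change was -0.44 over the 2660 genes at 0.5 to 2 CPM, -0.33 over the 3103 genes at 2 to 10 CPM and -0.03 over the 3316 genes at 10 to 30 CPM, and 0.15 over the 2460 genes above 100 CPM. SNAI1, CDH2 and OVOL1 lie at 4.04, 11.6 and 22.5 CPM on average. GRHL2 lies at 134 CPM, in the class above 100 CPM, where 55.2% of genes rose. The part of that drift in the changes of these 4 members was not tested.

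SNAI1 was at 6.54, 5.75 and 5.89 CPM in 22Rv1 controls and 2.27, 1.47 and 2.30 CPM in knockdowns. The groups are wide apart, and the change of -1.58 ± 0.20 (edgeR adjusted p = 5.12e-07), a 2.98-fold fall, is larger than the median of its level class. TWIST1 was at 14.2, 17.7 and 18.8 CPM in controls and 16.1, 14.6 and 13.2 CPM in knockdowns. These ranges overlap, and -0.19 ± 0.11 did not pass (edgeR adjusted p = 0.132), although it did without control 1 (0.0132) and when scaled by library totals (0.0371). The ZEB genes were hardly read in 22Rv1. ZEB1 had 7, 3 and 1 reads in controls and 4, 5 and 0 in knockdowns, a ratio of 1.09 with a 95% exact interval from 0.398 to 2.88 (counting error only). ZEB2 had 0, 1 and 0 reads in controls and 0, 0 and 2 in knockdowns.

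OVOL1 was at 32.3, 30.8 and 29.6 CPM in 22Rv1 controls and 15.1, 12.9 and 14.5 CPM in knockdowns. Each knockdown library held less than any control, a 2.17-fold fall (-1.11 ± 0.08, edgeR adjusted p = 2.56e-10). GRHL2, the other factor of the epithelial state, rose by 1.14-fold, from 131, 120.2 and 124 CPM to 144, 145 and 141 CPM (0.19 ± 0.04, edgeR adjusted p = 0.000391). All knockdowns lay above all controls, and over 13 alternative settings the rise ranged from 0.11 to 0.22 and passed in each. The pair of gatekeepers thus went opposite ways in 22Rv1, though the rise of GRHL2 is close to the median change of 0.15 of its level class.

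CDH2 was at 13.4, 13.1 and 12.7 CPM in 22Rv1 controls and 10.3, 9.67 and 10.1 CPM in knockdowns. The groups do not overlap, and the fall was 1.31-fold (-0.38 ± 0.10, edgeR adjusted p = 0.00231). VIM was at 1.10, 2.31 and 1.26 CPM in controls and 2.51, 2.51 and 1.65 CPM in knockdowns. Control 2 lies inside the knockdown range, and 0.58 ± 0.31 did not pass (edgeR adjusted p = 0.110); without control 2 it was 0.92 (0.0220), and in the fit of all 18 libraries 0.62 (0.0207). VIM-AS1, which overlaps VIM on the other strand, fell in 22Rv1 from 1.61 ± 0.563 to 0.704 ± 0.348 CPM (-1.16 ± 0.39, edgeR adjusted p = 0.0127). Without a stated strand setting, shared reads of the pair cannot be told apart. CDH1 rose slightly (0.11 ± 0.04, edgeR adjusted p = 0.0130), a call lost when scaled by library totals (0.03, adjusted p = 0.537). Its level class, above 100 CPM, had a median change of 0.15.

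In DU145, ZEB1 fell after EMD knockdown while SNAI2 and ZEB2 rose, and VIM did not pass the test. Of 8 members tested, 2 rose, 1 fell and 5 did not pass. Among the 19377 genes tested in DU145, 47.6% passed (24.1% higher and 23.6% lower). The 3 of 8 members are somewhat below that share, a count too small to read as a departure from it.

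ZEB1 was at 46.6, 50.6 and 49.99 CPM in DU145 controls and 34.3, 34.6 and 32.6 CPM in knockdowns. Each arm was tight and the arms were far apart for their spread, a 1.46-fold fall (-0.54 ± 0.05, edgeR adjusted p = 3.50e-09). Its paralog ZEB2 went up, from 4.77, 3.37 and 3.77 CPM to 5.85, 5.36 and 5.15 CPM. The lowest knockdown was above the highest control, and the rise was 1.40-fold (0.49 ± 0.13, edgeR adjusted p = 0.00282). ZEB1-AS1, which is transcribed from the opposite strand and overlaps ZEB1, also fell in DU145, from 4.20 ± 0.189 to 2.64 ± 0.38 CPM (-0.66 ± 0.15, edgeR adjusted p = 0.000527). It fell in 22Rv1 as well, from 8.79 ± 0.139 to 4.47 ± 0.34 CPM (-0.97 ± 0.14, edgeR adjusted p = 2.66e-06), where ZEB1 had 11 and 9 reads. Whether counting used strand is not given in the sources used here, so reads of ZEB1 and ZEB1-AS1 may be shared. In C4-2B, where ZEB1 had no control read, ZEB1-AS1 was at 15.7 ± 1.17 CPM, so its reads did not follow those of ZEB1 across lines.

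SNAI2 was at 1.10, 0.717 and 0.979 CPM in DU145 controls and 2.66, 2.24 and 2.27 CPM in knockdowns. All knockdowns lay above all controls, a rise of 1.39 ± 0.24 (edgeR adjusted p = 2.51e-05), or 2.62-fold, on 86 reads in controls and 242 in knockdowns. SNAI1 was at 3.24, 4.11 and 3.59 CPM in controls and 3.13, 3.05 and 2.46 CPM in knockdowns. Its groups do not overlap by a narrow margin, and -0.36 ± 0.15 did not pass (edgeR adjusted p = 0.0605), whereas it did without control 1 (0.0350) and with DESeq2 size factors (0.0473). TWIST1 was at 1.05, 0.287 and 0.356 CPM in controls and 0.357, 0.315 and 0.504 CPM in knockdowns (-0.40 ± 0.49, edgeR adjusted p = 0.550). Only control 1 was high, and without it the difference was 0.30, of the other sign.

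GRHL2 was at 0.381, 0.215 and 0.386 CPM in DU145 controls and 0.632, 0.175 and 0.672 CPM in knockdowns, overlapping (0.66 ± 0.49, edgeR adjusted p = 0.297). The arms held 30 and 52 reads, and knockdown 2 was below every control. OVOL1 had 1, 0 and 0 reads in controls and 3, 5 and 7 in knockdowns, which was under the filter on low counts. Its ratio of 14.4 has a 95% exact interval from 2.21 to 606 (counting error only), and with no filter it passed (edgeR adjusted p = 0.0197). Even so, its knockdown level of 0.151 ± 0.0605 CPM was far under the 9.36 ± 1.69 CPM of the C4-2B knockdowns, each on its own line's scale.

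VIM was at 1991, 2049 and 1960 CPM in DU145 controls and 1923, 2046 and 1856 CPM in knockdowns. The arms overlap, and -0.04 ± 0.05 did not pass (edgeR adjusted p = 0.533, 95% interval -0.14 to 0.06), so the interval holds changes of at most about 0.14 on the log2 scale. CDH2 was at 1.05, 0.215 and 0.386 CPM in controls and 0.549, 0.175 and 0.364 CPM in knockdowns (-0.44 ± 0.55, edgeR adjusted p = 0.566), and without control 1 it was 0.32. CDH1 fell 4.50-fold in DU145, from 22.6 ± 0.506 to 5.04 ± 0.492 CPM (-2.17 ± 0.08, edgeR adjusted p = 4.72e-18). The DU145 knockdowns thus had less ZEB1, more SNAI2 and ZEB2 and less CDH1 RNA.

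**Figure D3:**
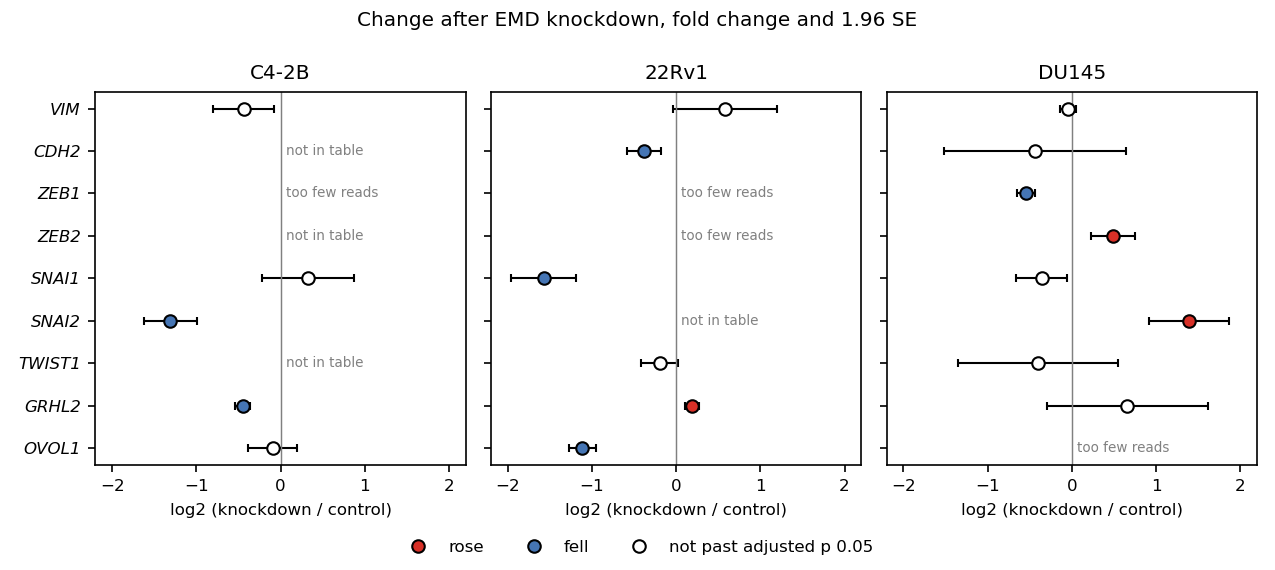
Log2 fold change of each gene after EMD knockdown in each line, with bars for the 95% interval; red and blue points passed the adjusted p threshold of 0.05 and open points did not. SNAI2 lies at -1.31 in C4-2B and at 1.39 in DU145, and SNAI1 and OVOL1 have the largest called changes in 22Rv1, at -1.58 and -1.11.

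The responses themselves differed between lines. So did the fall of EMD, in the fit of all 18 libraries. Its change differed by -1.29 ± 0.14 for C4-2B less 22Rv1 (edgeR adjusted p = 9.78e-09). For 22Rv1 less DU145 the difference was 1.42 ± 0.14 (edgeR adjusted p = 9.39e-10). The part of this weaker knockdown of 22Rv1 in the differences of the members was not tested. SNAI2 fell in C4-2B and rose in DU145: its change in C4-2B less that in DU145 was -2.74 ± 0.27 in the added fit of 12 libraries (edgeR adjusted p = 4.65e-09, where 45.6% of genes tested passed), and all 7 alternatives lay between -2.76 and -2.71. In the fit of all 18 libraries, 5 of 5 members differed between C4-2B and 22Rv1 (background 56.1%), 4 of 5 between C4-2B and DU145 (45.7%) and 3 of 5 between 22Rv1 and DU145 (55.6%). The count of 4 dropped to 2 in limma voom and to 2 whichever replicate number was left out. These comparisons share libraries and are not independent of each other. SNAI1 differed by 1.94 ± 0.32 between C4-2B and 22Rv1 (edgeR adjusted p = 4.18e-06) and by -1.28 ± 0.30 between 22Rv1 and DU145 (0.000462), so its change in 22Rv1 was lower than that in either other line. For C4-2B less DU145 its difference was 0.66 and did not pass (adjusted p = 0.0808).

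GRHL2 fell in C4-2B and rose in 22Rv1, a difference of -0.60 ± 0.08 (edgeR adjusted p = 6.19e-07). For C4-2B less DU145 it was -1.19 ± 0.36 (0.00763), resting on 82 reads in DU145. That call was lost without replicate 1 (0.0887) or replicate 3 (0.113) of each group and in limma voom (0.169). OVOL1 had a lower change in 22Rv1 than in C4-2B, by 1.07 ± 0.18 on the log2 scale (edgeR adjusted p = 4.33e-06). Its differences with DU145 and those of ZEB1 with C4-2B passed the test but rest on arms of 0 or 1 read, so their fitted sizes depend on the prior count and are not given as folds. ZEB1 was also listed for C4-2B through its knockdown reads alone. For OVOL1, the call of C4-2B less DU145 was lost without replicate 2 of each group (0.0675). For ZEB1, that of C4-2B less DU145 was lost without replicate 1 (0.0679), and that of C4-2B less 22Rv1 without replicate 1 (0.216) or replicate 3 (0.0511) and in limma voom (0.114). VIM differed by -1.06 ± 0.27 between C4-2B and 22Rv1 (edgeR adjusted p = 0.00186). In that fit it fell in C4-2B (-0.45, adjusted p = 0.0182) and rose in 22Rv1 (0.62, 0.0207), calls it did not reach in the fit of either line alone. For C4-2B less DU145 it was -0.42 ± 0.16 (0.0337), lost without replicate 2 (0.108) or replicate 3 (0.0930) of each group and in limma voom (0.122). For 22Rv1 less DU145 it was 0.64 ± 0.23 (0.0217), lost without replicate 1 (0.305) or replicate 3 (0.0589) and in limma voom (0.0854). Of the members in the 12-library fit of 22Rv1 less DU145, none of 3 differed past the threshold, where 56.6% of genes tested did. CDH2 and TWIST1 were among them (-0.08 ± 0.51 and 0.08 ± 0.45, edgeR adjusted p = 0.907 and 0.899, 95% intervals -1.08 to 0.91 and -0.79 to 0.95), which leaves room for sizeable differences either way.

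The miR-200 microRNAs, the best-known post-transcriptional brake on ZEB1 and ZEB2, fall into groups by their seed, bases 2 to 8 of the mature strand. Their sequences are shown because ZEB1 and ZEB2 carry many matches to them and because the host transcript of miR-200c and miR-141 was counted here. Mature sequences are from RefSeq (GRCh38.p14), 5′ to 3′, with the seed in capitals, first those with the seed AAUACUG and then those with AACACUG.
hsa-miR-200b-3p: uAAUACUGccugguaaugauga
hsa-miR-200c-3p: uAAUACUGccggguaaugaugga
hsa-miR-429: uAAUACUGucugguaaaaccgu
hsa-miR-141-3p: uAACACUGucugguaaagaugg
hsa-miR-200a-3p: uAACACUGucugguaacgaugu
miR-200c and miR-141 lie on chromosome 12 (6963742 to 6963764 and 6964155 to 6964176, plus strand) in the host gene MIR200CHG, and the other 3 lie on chromosome 1. MIR200CHG had 45, 53 and 47 reads in C4-2B controls and 83, 92 and 73 in knockdowns, a rise of 1.00 ± 0.24 (2.55 ± 0.573 to 5.06 ± 0.585 CPM, edgeR adjusted p = 0.00150). In 22Rv1 it had 7, 14 and 7 reads against 6, 6 and 1, and in DU145 4, 5 and 7 against 0, 0 and 0, under the filter on low counts in both lines. Mature microRNAs were not measured in these libraries.

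The 3′ end of ZEB1 carries many matches to these seeds. In the 3′ untranslated region of ZEB1 (transcript ENST00000361642.9, 2549 bases, GRCh38) the letters CAGTATT, the complement of the first seed, were found 6 times and CAGTGTT, that of the second, 3 times. In ZEB2 (ENST00000636471.1, 5370 bases) they were found 5 and 4 times. Among annotated 3′ untranslated regions within 20% of these lengths, none held as many CAGTATT matches as ZEB1 (of 2022) or ZEB2 (of 869), and 0.544% and 1.496% held as many CAGTGTT matches. The first CAGTATT match of each gene is printed with its flanks, in capitals, at chr10:31527618-31527647 (plus strand) and chr2:144389045-144389074 (minus strand).
ZEB1: attgttttatcttatCAGTATTatcactct
ZEB2: cgcactaccatacatCAGTATTtttattat
A match of letters is a description and not a measured site. ZEB1 fell and ZEB2 rose in DU145, where MIR200CHG reads went from 16 to 0, under the filter on low counts. A link between MIR200CHG and either gene was not tested.

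RefSeq promoter windows were matched for 4 of the 9 members (CDH2, VIM, ZEB1 and ZEB2). The box CACCTG, or CAGGTG on the other strand, which the ZEB and SNAI proteins are known to bind, occurs in 17.49% of all 35116 windows of 250 bases before a start. ZEB1 has 7 such windows, of which 2 hold a match. The window before the most upstream start holds 1, beginning at position -57 from that start. It is printed because ZEB1 was a called member in DU145 and its window holds a match, and binding of this box by any factor was not tested. The window spans chr10:31318167-31318416 (plus strand, GRCh38.p14, no annotated exon of ZEB1), with the box in capitals.
ZEB1: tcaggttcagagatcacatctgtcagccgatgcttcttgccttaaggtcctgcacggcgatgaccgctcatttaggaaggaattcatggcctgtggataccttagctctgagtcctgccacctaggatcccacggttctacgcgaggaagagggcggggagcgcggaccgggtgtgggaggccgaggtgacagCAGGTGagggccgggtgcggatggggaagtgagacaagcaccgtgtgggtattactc
The window before the VIM start holds none, which says only that these letters are not there.

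Related genes were counted in lists of EMT biology. Of the other EMT-inducing factors, 9 of 15 tested fell and 3 rose in 22Rv1, with a median log2 change of -1.11 where that of all genes tested was 0.00. In that line 34.3% of all genes tested fell and 33.5% rose, and of those at 2 to 10 CPM 46.3% fell. The part of this drift of low-level genes in the list counts of 22Rv1 was not tested. Of all genes tested, 19.4% rose and 22.3% fell in C4-2B, and 24.1% rose and 23.6% fell in DU145. These shares are the background of every list count below. FOXC1, a forkhead inducer, went from 10.7 ± 0.238 to 3.31 ± 0.593 CPM there (-1.67 ± 0.15), and SNAI3, another Snail-family gene, from 3.15 ± 0.684 to 0.745 ± 0.204 CPM (-2.08 ± 0.30). SNAI1 and SNAI3 thus both fell in 22Rv1. In C4-2B 1 of 15 rose and 2 fell (median 0.00, all genes 0.01), with 0 rises without control 1, without knockdown 1 or 2 and in the fit of all 18 libraries, and SOX9 went from 40.8 ± 2.07 to 14.8 ± 1.11 CPM (-1.46 ± 0.09). In DU145 4 of 18 rose and 7 fell (median -0.03, all genes 0.01), with PRRX2 rising (1.54 ± 0.29) and SIX2 falling (-2.51 ± 0.24).

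The other epithelial gatekeeper factors share a list with splicing regulators, RBFOX2 and QKI among them, so it does not hold factors of the epithelial state alone. Of those tested, 12 of 19 fell and 5 rose in 22Rv1 (median -0.36), the line where OVOL1 fell. EHF, an epithelial ETS factor, fell 5.10-fold there (51.5 ± 2.26 to 9.99 ± 1.25 CPM, -2.35 ± 0.08), and TFAP2A rose (1.31 ± 0.05). In DU145 11 of 19 rose and 3 fell (median 0.25), where 24.1% of all genes tested rose and 23.6% fell. KLF4 went there from 6.68 ± 0.309 to 19.8 ± 0.213 CPM (1.57 ± 0.08) and the splicing regulator ESRP2 from 42.6 ± 1.85 to 71.0 ± 2.06 CPM (0.73 ± 0.05). In C4-2B 7 of 20 rose and 4 fell (median -0.01), with ELF3 rising (0.74 ± 0.06) and KLF5 falling (-0.48 ± 0.14), and the rises numbered 4 without knockdown 2, and the falls 2 without control 2 or knockdown 1 or with library totals.

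The epithelial genes that ZEB and SNAI factors repress or GRHL2 activates did not follow a single direction. In C4-2B, where GRHL2 and SNAI2 fell, 14 of 28 rose and 5 fell (median 0.12), against 19.4% and 22.3% of all genes tested. The claudin CLDN4 rose by 0.81 ± 0.04 (202 ± 2.61 to 354 ± 7.52 CPM) and the tight junction genes OCLN and TJP3 by 0.45 ± 0.06 and 0.58 ± 0.07. The keratin gene KRT19 went the other way and fell by 0.87 on the log2 scale (edgeR adjusted p = 2.19e-09). In 22Rv1, where OVOL1 and SNAI1 fell, 10 of 29 rose and 12 fell (median 0.08), against 33.5% and 34.3% of all genes tested. CLDN4 and CLDN7 fell there by 0.90 ± 0.04 and 0.99 ± 0.04 on the log2 scale, opposite to CLDN4 in C4-2B. In DU145, where ZEB1 fell, 8 of 29 rose and 13 fell (median -0.26), against 24.1% and 23.6% of all genes tested. CDH1 was among those that fell, and AP1M2, a clathrin adaptor subunit of epithelia, rose 20.9-fold (0.532 ± 0.162 to 10.5 ± 0.159 CPM, 4.38 ± 0.16).

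Of the mesenchymal genes, 17 of 19 fell and 1 rose in 22Rv1 (median -1.54), the median farthest from 0 among the 7 lists and 3 lines. Of all genes tested there, 34.3% fell and 33.5% rose, and the low-level genes drifted down as given above. The single rise was lost with library totals, with no filter, with a mean of at least 1 CPM, without knockdown 1 or 3 and in the fit of all 18 libraries (0 rises in each). FN1, which encodes fibronectin, fell 10.0-fold (548 ± 28.8 to 54.8 ± 2.34 CPM, -3.32 ± 0.05), MMP14, a membrane-bound matrix protease, from 12.5 ± 1.298 to 2.80 ± 0.132 CPM and WNT5A from 11.2 ± 1.37 to 1.09 ± 0.341 CPM. CDH2 fell with them, by the smaller amount given above, while VIM did not pass the test. In DU145 12 of 24 fell and 6 rose (median -0.30), where 23.6% of all genes tested fell and 24.1% rose. TAGLN (transgelin) fell there 33.3-fold from 78.4 ± 3.20 to 2.36 ± 0.178 CPM (-5.06 ± 0.08) and the collagen cross-linker LOX 10.2-fold, while VIM did not pass the test. In C4-2B 6 of 16 rose and 4 fell (median 0.04), with COL5A1 rising by 2.06 ± 0.16, and the falls numbered 2 without control 3.

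Among intermediate filament and cadherin genes, the families of VIM and CDH2, 6 of 14 rose and 6 fell in 22Rv1, 5 of 11 rose and 3 fell in C4-2B, and 4 of 19 rose and 7 fell in DU145 (4 fell without knockdown 1). Beside this list and those that follow, 33.5% of all genes tested rose and 34.3% fell in 22Rv1. The shares were 19.4% and 22.3% in C4-2B and 24.1% and 23.6% in DU145. NEFL, a neurofilament subunit, rose from 2.94 ± 0.232 to 22.2 ± 1.91 CPM in DU145 (2.90 ± 0.09) and fell in 22Rv1 (-3.54 ± 0.40), whereas NES (nestin) rose in DU145 (1.16 ± 0.07) and fell in C4-2B (-0.89 ± 0.26). CDH3, which encodes P-cadherin, fell in DU145 (-1.34 ± 0.06). The list of EMT signalling genes holds ligands and receptors but also SMAD7, BMP7, ID1, ID2 and ID3, so it is not a list of inducers alone. Of these genes, 5 of 27 rose and 9 fell in C4-2B, 7 of 29 and 14 in 22Rv1, and 10 of 29 and 9 in DU145. The 7 rises of 22Rv1 numbered 4 with library totals and 4 in the fit of all 18 libraries. TGFB2, the ligand TGF-beta 2, fell in C4-2B (13.1 ± 0.722 to 2.23 ± 0.967 CPM, -2.57 ± 0.22) and rose in DU145 (21.0 ± 1.19 to 71.1 ± 0.273 CPM, 1.75 ± 0.06). In C4-2B HGF (-2.17), ID1 (-1.89) and ID3 (-1.29) fell as well. In 22Rv1 PDGFA (-3.81), BMP7 (-3.42), GAS6 (-2.41) and JAG1 (-2.10) fell. In DU145 BMP7 (4.69) and ID2 (1.94) rose and GAS6 (-1.28) fell. A link of any of these with SNAI2 was not tested. Partners and turnover factors of the EMT regulators moved little in size: medians were 0.03, 0.12 and 0.00 in C4-2B, 22Rv1 and DU145, with 6, 14 and 11 rising and 8, 4 and 6 falling of 28, 29 and 29. In 22Rv1 the rises numbered 8 and the falls 7 with library totals, and in C4-2B the rises numbered 3 without control 1 or knockdown 3. KDM1A, the histone demethylase that Snail recruits, fell by 0.36 ± 0.05 on the log2 scale in C4-2B, and SIRT1 and BMI1 fell by 0.69 ± 0.06 and 0.52 ± 0.06 in DU145.

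**Figure D4:**
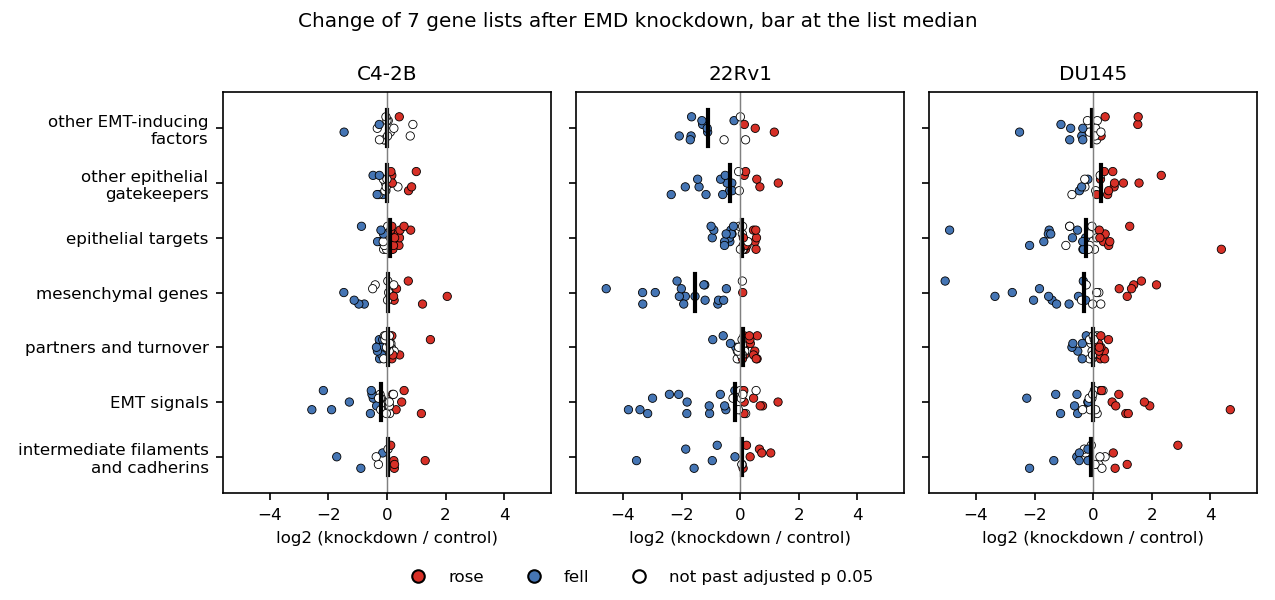
Log2 fold change after EMD knockdown of each tested gene of the 7 lists, by line, with the list median as a bar; red and blue points passed the adjusted p threshold of 0.05 and open points did not. The mesenchymal genes of 22Rv1 lie mostly left of 0, with a median of -1.54.

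The genes whose pattern over the 18 libraries was most like that of a member were found by Pearson's r of log2 (CPM + 1), a description that mostly follows the contrast of DU145 with the other lines, since libraries of a line share batch and table. For ZEB1 they were NEXN (r = 0.999), PARP6 (0.998) and IL18 (0.998). For VIM they were PXN (0.997), TGFBR2 (0.995) and UCHL1 (0.995). For GRHL2 they were RALGDS (0.999), MAGEA12 (0.998) and MAGEA3 (0.998), and for OVOL1 CHRNA2, METTL7A and C17orf107 (each 0.995). SNAI1, the member with the smallest gap between lines, had weaker likeness to any gene, with LRP4 (0.907), HLA-C (0.903) and TTBK2 (0.902).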

How the data were processed

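Gene counts of the 18 libraries were analysed. The authors deposited RSEM expected counts per gene, already rounded. STAR and RSEM 1.3.1 are the tools, and GRCh38 the build, named in the submitters' processing notes; annotation release and strand setting are not given in the sources used here. Spike-in rows (92) and second pseudoautosomal copies (30) of the DU145 table were left out, and no deposited per-sample column went unused. In every line, edgeR 4.0.16 (R 4.3.3) ran its robust quasi-likelihood test on TMM-scaled genes that passed filterByExpr at a count of 10 and a total of 15, with Benjamini-Hochberg adjustment over all genes tested and a threshold of 0.05. Differences between lines used 18 libraries and the 18445 genes listed in all 3 tables. SE is the log2 change divided by the root of the F statistic, and 95% intervals take a normal spread. The scripts were tested on simulated data. Alternatives were DESeq2 1.42.0, limma 3.58.1 voom, other scalings and filters, a replicate block and left-out libraries. Genes named from the lists were, per line, the up to 4 called members of at least 1 CPM with the largest change, plus CDH1. The antisense genes were chosen after their values were seen. The members and lists were chosen with earlier results of these data known. Gene positions and untranslated regions are from GENCODE v29 (GRCh38). Some genes of the lists are counted but not reported here by name.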

Additional observations from a re-analysis of the deposited data

Results flagged for a closer look

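A tested difference of the knockdown response between lines set 13 values of the 9 genes apart, each as a log2 difference from edgeR. For C4-2B less 22Rv1 these were -1.06 for VIM, 4.51 for ZEB1, 1.94 for SNAI1, -0.60 for GRHL2 and 1.07 for OVOL1. For C4-2B less DU145 they were -0.42 for VIM, 5.10 for ZEB1, -1.19 for GRHL2 and -3.44 for OVOL1, and, in the fit of 12 libraries, -2.74 for SNAI2. For 22Rv1 less DU145 they were 0.64 for VIM, -1.28 for SNAI1 and -4.51 for OVOL1. The values of ZEB1 rest on C4-2B controls with 0 reads, and those of OVOL1 against DU145 on controls with 1 read in all, so their sizes depend on the prior count. ZEB1 was also listed for C4-2B through its knockdown reads alone. The 3 pairs of lines share libraries.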

How the results depend on the processing

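Over the single-gene tests of the members, 497 alternatives kept direction and side of the threshold, 8 gained it, 17 lost it and 11 turned direction. All 9 within-line calls of members held in every alternative run. Each turn of direction was in a value that did not pass. With 1 library left out, OVOL1 in C4-2B ranged from -0.23 to 0.023 (the latter without knockdown 1). In DU145, VIM ranged from -0.084 to 0.023 (without knockdown 3), CDH2 from -0.86 to 0.32 and TWIST1 from -0.73 to 0.30 (both without control 1), and VIM was 0.0024 with library totals. In the 12-library fit of 22Rv1 less DU145, TWIST1 was -0.046 with library totals, -0.051 with limma voom and from -0.79 (without replicate 1) to 0.67 with a number left out, CDH2 from -0.32 to 0.10 (without replicate 2) and ZEB2 from -2.94 (without replicate 3) to 3.13. The number of members whose response differed between C4-2B and DU145 was 4, against 2 with limma voom and 2 whichever replicate number was left out. The cause was not tested. Same-numbered deviations correlated at -0.052 to 0.031 in C4-2B and 22Rv1, where replicate numbers did not clearly pair the libraries. In DU145 they correlated at 0.125, 0.314 and 0.028 for replicates 1 to 3, so a pairing there is not settled. Not every library was closest to its own number. With the replicate block, 2, 4 and 3 members passed in C4-2B, 22Rv1 and DU145, as without it, and only CDH2 in the 12-library fit turned (0.13). The counts of all genes were 6623, 11146 and 9860 with the block and 6584, 11288 and 9232 without it. Library totals raised the share of rises among calls from 46.6% to 57.0% in C4-2B and from 50.5% to 57.1% in DU145, and lowered it from 49.5% to 42.04% in 22Rv1. Few reads lie behind ZEB1 and ZEB2 in 22Rv1, ZEB1 in C4-2B, and GRHL2, OVOL1, CDH2 and TWIST1 in DU145.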
